A study of Mus musculus with 6 samples.

Results

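The apolipoproteins and the assembly proteins of very-low-density lipoprotein (VLDL) were followed here as 10 genes, taken by name from the deposited tables: *Apoa1*, *Apoa2*, *Apoa5*, *Apob*, *Apoc2*, *Apoc3*, *Apoe*, *Mttp*, *Tm6sf2* and *Apom*. They were 10 of the 21528 genes listed in at least 1 library, and all 10 were among the 12225 genes that were tested because they averaged 0.5 FPKM or more. FPKM are fragment numbers corrected for transcript length and for the size of the library. RNA-Seq was made from total RNA of the liver of 3 wild type (WT) and 3 TRIM24 C52/55A knockin mice, with 1 library per mouse. All 6 mice are labelled C57BL/6, the knockin having been made on C57Bl/6J, were 5 months old and had eaten a high-fat diet (HFD; 60% fat) for 3 months, so the comparison is between genotypes on that diet only. In the knockin, cysteines 52 and 55 of the RING domain of TRIM24, a ubiquitin E3 ligase, are replaced by alanines in every cell of the body, and the liver is therefore not the only tissue changed. The WT mice were littermates, and sex is not in the labels.

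Apolipoproteins coat the particles that carry triglyceride and cholesterol through blood. The liver builds VLDL around a single molecule of apolipoprotein B, which is loaded with lipid in the endoplasmic reticulum by microsomal triglyceride transfer protein (encoded by *Mttp*) and enlarged with the help of TM6SF2. The smaller apolipoproteins move between particles in plasma, where apoA-I and apoA-II shape high-density lipoprotein (HDL), apoC-II switches on lipoprotein lipase, apoC-III restrains it, apoA-V assists it, and apoE is bound by hepatic receptors that clear remnants.

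In the TRIM24 C52/55A liver, *Apoc2*, the lipase activator, was at 44.1% and *Apoa2*, an HDL protein, at 66.2% of the WT mean, and these 2 fell with an adjusted p-value under 0.05, a threshold that 7.72% of all genes tested passed in either direction. *Apob*, the structural protein of VLDL, and *Apoa1*, the main HDL protein, had overlapping values in the 2 genotypes. For *Apoe*, *Apoa5*, *Apoc3*, *Mttp* and *Tm6sf2*, the 3 knockin livers lay below the 3 WT livers, by amounts that did not pass the test over all genes. Such a separation downward was seen in 22.5% of all genes tested. *Apom*, which carries sphingosine-1-phosphate on HDL, had a higher mean in the knockin with overlapping groups.

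The upstream sequences of 4 genes are shown because these genes span the range of outcomes: *Apoc2* and *Apoa2*, which fell, and *Apoa1* and *Apob*, which did not pass the test. They are from RefSeq (GRCm38.p6), printed 5′ to 3′ on the strand of the gene and ending at the base before the first base of the gene in GENCODE M21. The start site of the RefSeq window lies there for *Apoc2* and *Apoa2*, and inside the GENCODE gene for *Apoa1* and *Apob*, where the 50 and 29 bases in between were left out. *Apoa2* has 1 more RefSeq window, with its start site at 171221564, which holds 2 matches to the C/EBP-type motif and none to the others named below. The window printed is the one that starts at the GENCODE gene. For *Apoc2* the stretch is chr7:19677942-19678082 on the minus strand, the whole 141 bases that separate it from *Apoc4*. For *Apoa2* it is chr1:171224804-171225053, for *Apoa1* chr9:46228380-46228579 and for *Apob* chr12:7977427-7977647, all on the plus strand. Capitals mark matches on either strand to 4 motifs of liver promoters: the TATA box written as TATAAA, an HNF4-type site as CAAAGNNCA, an HNF1-type site as GTTAAT and a C/EBP-type site as TTGCNNAA.
Apoc2: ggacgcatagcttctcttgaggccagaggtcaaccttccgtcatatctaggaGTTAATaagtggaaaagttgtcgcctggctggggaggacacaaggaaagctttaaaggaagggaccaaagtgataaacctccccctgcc
Apoa2: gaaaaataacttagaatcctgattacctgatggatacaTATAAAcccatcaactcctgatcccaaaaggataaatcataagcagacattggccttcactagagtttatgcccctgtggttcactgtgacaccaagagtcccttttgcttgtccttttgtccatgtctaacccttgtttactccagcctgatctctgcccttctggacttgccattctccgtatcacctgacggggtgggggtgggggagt
Apoa1: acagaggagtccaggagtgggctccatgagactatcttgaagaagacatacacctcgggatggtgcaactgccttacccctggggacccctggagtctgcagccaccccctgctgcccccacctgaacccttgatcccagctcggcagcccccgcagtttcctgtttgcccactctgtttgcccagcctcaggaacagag
Apob: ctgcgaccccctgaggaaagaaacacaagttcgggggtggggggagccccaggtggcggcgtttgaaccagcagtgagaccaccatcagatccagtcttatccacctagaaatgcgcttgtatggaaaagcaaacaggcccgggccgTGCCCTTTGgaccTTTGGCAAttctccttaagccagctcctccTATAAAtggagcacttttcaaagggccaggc
The stretch of *Apoc2* holds GTTAAT at position -89, counted back from the first base in GENCODE, and that of *Apoa2* holds TATAAA at -212. The *Apob* stretch holds 3 matches, to the HNF4-type motif at -74, the C/EBP-type motif at -61 and TATAAA at -31, while the letters of none of the 4 motifs are in the *Apoa1* stretch. Over 32851 promoter windows of 300 bases, TATAAA was in 13.6%, CAAAGNNCA in 6.4%, GTTAAT in 7.1% and TTGCNNAA in 10.8%. Those windows are longer than the printed stretches and reach past the start site, so the rates do not apply directly to the stretches. A match of letters is not a measured site. RefSeq windows were at hand for 8 of the 10 genes, *Apoc3* and *Tm6sf2* being the others.

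The level of the 10 genes in WT liver ran from *Apoe* at 19685 ± 1060 FPKM (SD, n = 3) down to *Tm6sf2* at 26.4 ± 2.56 FPKM. In order of mean they were *Apoe*, *Apoa2*, *Apoa1*, *Apoc3*, *Apoa5*, *Apob*, *Apoc2*, *Apom*, *Mttp* and *Tm6sf2*. FPKM is scaled to transcript length, so these levels can be set beside each other. The WT ranges of *Apoa5* and *Apob* overlapped, as did those of *Apom* and *Mttp*, and the other neighbours in the order were apart. In the TRIM24 C52/55A livers *Apob* lay above *Apoa5* without overlap, and the ranges of *Apoc2* and *Apom* overlapped, although *Apoc2* was above *Apom* within each library.

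**Figure D1:**
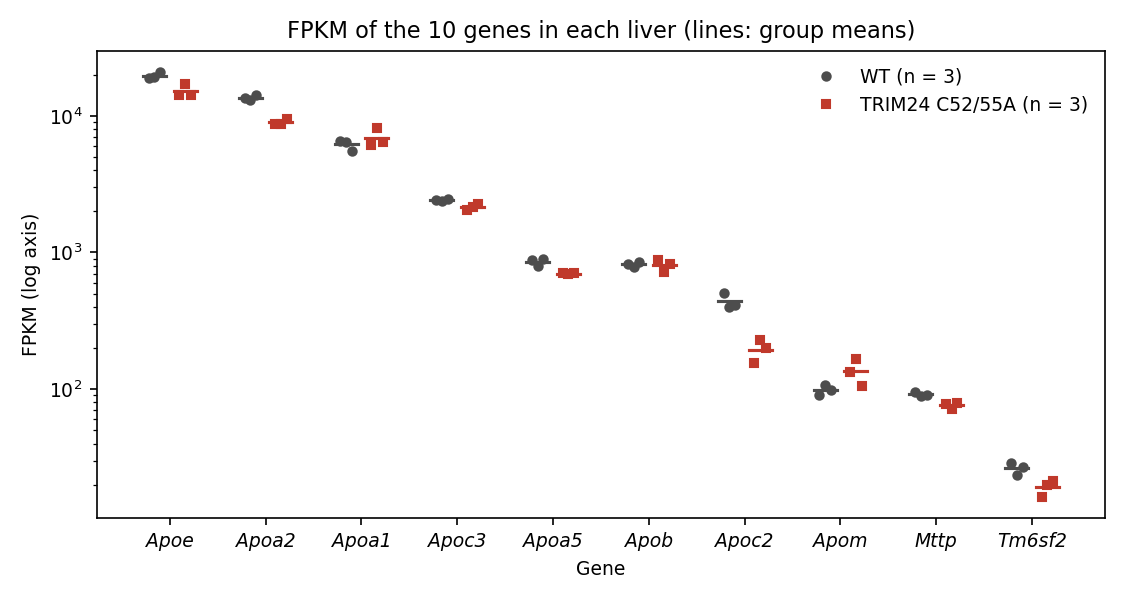
FPKM of the 10 genes on a log axis in each of 3 WT livers (circles) and 3 TRIM24 C52/55A livers (squares), with lines at the group means. The genes run from *Apoe*, near 19685 FPKM in WT, to *Tm6sf2*, near 26.4, and *Apoc2* shows the widest gap between genotypes.

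The differences were tested on log2(FPKM + 1) with limma and Benjamini-Hochberg adjustment over all 12225 genes, and fold changes are on that scale. Over all genes, 6.09% passed and were lower in the knockin. Of the 10 genes 2 passed, both lower. In the same fit, 8 of the 10 fold changes were negative, as were 8005 of the 12225 over all genes tested. The median of the 10 was -0.28, against -0.08 over all genes tested. In 7 of the 10 genes every knockin liver lay below every WT liver, an arrangement seen in 22.5% of all genes tested, and in 0 of the 10 did every knockin liver lie above, an arrangement seen in 6.31%. The 10 genes came from 3 mice per genotype, so they are not independent of each other. With 3 against 3, the smallest two-sided p of the exact permutation test is 0.1. The labels say no more of the animals behind the libraries. The limma p-values set each difference against the spread within genotypes in these 6 samples, shared in part over all genes tested. Part of that spread may be technical. In bulk liver RNA, fewer cells of a type and less RNA per cell cannot be told apart.

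TRIM24 C52/55A replicate 2 stood apart in adipocyte genes. The adipocyte markers were searched as 14 symbols, of which *Trarg1* was in no library because it is another name of *Tusc5*, which was listed. With that symbol counted as 0, 1 was at 0 in that library and 4 to 6 in each of the others. Of the 13 listed, 9 had their highest value there. *Car3*, which makes up almost all of the summed markers, was lowest there, at 1436 FPKM against 1885 to 2259 FPKM in the others, so the sum was lowest too, at 1474 FPKM against 1900.4 to 2272 FPKM in WT and 1957 and 2148 FPKM in the other knockin libraries. Without *Car3* the sum was 38.2 FPKM in that library and 9.98 to 15.4 FPKM in the others. With TRIM24 C52/55A replicate 2 left out, *Apoc2* and *Apoa2* passed with adjusted p-values of 0.00470 and 0.0244 (limma). Sums over 10 sinusoidal endothelial markers were 161 to 171 FPKM in WT and 153 to 157 FPKM in knockin libraries, those over 10 stellate cell markers 228 to 233 and 219 to 274 FPKM, and those over 8 cholangiocyte markers 30.4 to 56.1 and 23.4 to 36.2 FPKM. By limma 1 of the 10 endothelial markers passed, *Lyve1*, which fell to 33.2% of the WT mean (log2 fold change -1.26, adjusted p = 0.0281) and passed in 9 of the 15 alternatives. Of the 10 adipocyte markers tested 2 passed, *Adrb3* upward and *Plin4* downward. Of the 10 stellate and the 6 cholangiocyte markers tested 0 passed with limma, and 5 and 3 had an unadjusted p under 0.05. Over all genes tested, 7.72% passed and 23.6% had such an unadjusted p. The part of these cells in the differences was not tested.

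**Figure D2:**
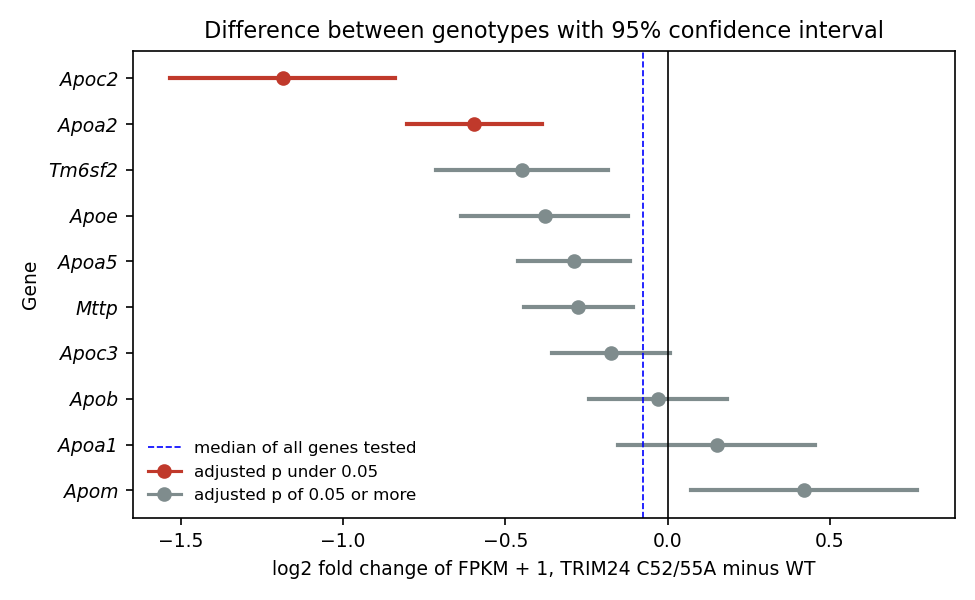
Difference between genotypes for each gene, as log2 fold change of FPKM + 1 in TRIM24 C52/55A minus WT liver, with the 95% confidence interval from limma (n = 3 against 3); the dashed line is the median of all genes tested, -0.08. Red marks the pair past the adjusted threshold of 0.05, *Apoc2* at -1.19 and *Apoa2* at -0.60.

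*Apoc2* encodes apoC-II, the cofactor without which lipoprotein lipase does not hydrolyse triglyceride. In order of replicate number, the WT livers held 509, 400 and 415 FPKM and the knockin livers held 155, 230 and 199 FPKM. The lowest WT liver was well above the highest knockin liver. The log2 fold change was -1.19 (standard error 0.15, 95% confidence interval -1.53 to -0.84, adjusted p = 0.00480 from limma). It passed the threshold in all 15 alternative processings, with adjusted p-values from 0.00341 to 0.0349. *Apoc2* lies on chromosome 7 from 19671579 to 19677941 on the minus strand (GENCODE M21, GRCm38; 4 exons). The deposited files give 1 interval, 7:19671579 to 19681479, to *Apoc2*, *Apoc4* and *Gm44805*, a protein-coding model that spans both, so fragments may have been divided among the 3. *Gm44805* stayed between 24.2 and 43.3 FPKM in the 6 livers, with overlapping groups, and the sum of the 3 models was not tested.

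The lipase inhibitor encoded by *Apoc3* moved less. *Apoc3* had 2400.0, 2383 and 2480.2 FPKM in WT and 2031, 2154 and 2256 FPKM in knockin livers, with the groups apart. Its log2 fold change was -0.17 (95% confidence interval -0.36 to 0.01, adjusted p = 0.233 from limma), which did not pass. With quantile normalization it was -0.52 and passed (adjusted p = 0.0186 from limma), and with median-of-ratios scaling it was -0.07. The ratio of *Apoc2* to *Apoc3* within a library, activator to inhibitor, was 0.182 ± 0.0257 (SD, n = 3) in WT and 0.0905 ± 0.0151 in TRIM24 C52/55A livers. The 2 groups of ratios did not overlap (exact two-sided permutation p = 0.1, the smallest possible). Scaling of a library cancels in such a ratio. The ratios were picked after the values had been seen.

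*Apoa5* encodes a plasma protein that helps lipoprotein lipase act on triglyceride-rich particles. It had 883, 802 and 890 FPKM in WT and 703, 697 and 704 FPKM in TRIM24 C52/55A livers. The 3 knockin livers were nearly equal, with a coefficient of variation of 0.536%, and all were below the WT livers. At -0.29 on the log2 scale (standard error 0.08, 95% confidence interval -0.46 to -0.12), the difference had an adjusted p of 0.0551 from limma and missed the threshold, which it passed in 2 of the 15 alternatives. With median-of-ratios scaling the difference was -0.19. The ratio of *Apoa5* to *Apoc3* was 0.354 ± 0.0160 (n = 3) in WT and 0.327 ± 0.0174 in knockin livers, with overlap (exact permutation p = 0.2).

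Among the HDL proteins, *Apoa2* and *Apoa1* parted. *Apoa2*, on chromosome 1 from 171225054 to 171226379 (plus strand, 4 exons), had 13424, 13056 and 14135 FPKM in WT and 8763, 8684 and 9443 FPKM in TRIM24 C52/55A livers. Replicates of each genotype were close, with coefficients of variation of 4.05% and 4.65%, and the groups were far apart. The log2 fold change was -0.60 (standard error 0.09, 95% confidence interval -0.80 to -0.39, adjusted p = 0.00948 from limma). It passed in 13 of 15 alternatives. Without TRIM24 C52/55A replicate 1 its adjusted p was 0.0532 (limma), and with no filter on low values it was 0.115.

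*Apoa1* encodes the protein that builds HDL and activates lecithin-cholesterol acyltransferase. It had 6552, 6437 and 5556 FPKM in WT and 6087, 8183 and 6448 FPKM in knockin livers. The groups overlapped, and the highest value was that of TRIM24 C52/55A replicate 2. The log2 fold change was 0.15 (95% confidence interval -0.15 to 0.45, adjusted p = 0.548 from limma) and was -0.08 with quantile normalization. Without TRIM24 C52/55A replicate 2 it was 0.02. As a change in level, the interval runs from -9.95% to 37.0%. The ratio of *Apoa1* to *Apoa2* was 0.458 ± 0.0564 (n = 3) in WT and 0.773 ± 0.146 in knockin livers, higher in each knockin liver than in any WT liver (exact two-sided permutation p = 0.1, the smallest possible).

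*Apom* encodes the HDL protein that binds sphingosine-1-phosphate. It had 90.8, 107 and 99.2 FPKM in WT and 132, 166 and 106 FPKM in TRIM24 C52/55A livers. Knockin replicates 1 and 2 were above every WT liver, while replicate 3 lay within the WT range. On the log2 scale the difference was 0.42 (95% confidence interval 0.07 to 0.77, adjusted p = 0.139 from limma), which did not pass. Without TRIM24 C52/55A replicate 3 it was 0.58 (adjusted p = 0.0332 from limma), and without replicate 2 it was 0.26 (adjusted p = 0.196 from limma). *Apom* had the widest spread of the 10 genes among knockin livers, with a coefficient of variation of 22.3%.

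*Apoe* encodes the ligand through which the liver takes up remnants, and macrophages make it as well as hepatocytes. It had 19029, 19118 and 20908 FPKM in WT and 14247, 17159 and 14149 FPKM in TRIM24 C52/55A livers. All knockin livers were lower, and replicate 2 was the highest of them. Its log2 fold change was -0.38 (standard error 0.11, 95% confidence interval -0.64 to -0.12), and the adjusted p of 0.0829 from limma did not pass. It was 0.0476 without TRIM24 C52/55A replicate 2 (limma). The sum of 12 Kupffer cell and macrophage markers was 309, 386 and 381 FPKM in WT and 253, 370 and 258 FPKM in knockin livers, so replicate 2 was also the highest knockin liver in these. Each of the 12 markers was above 0 in every library and had a negative fold change (median -0.29). Negative fold changes were found for 8005 of the 12225 genes tested. Of the 12, 0 passed limma's test (7.72% of all genes tested did) and 2, or 16.7%, had an unadjusted p under 0.05, against 23.6% of all genes tested. Their part in the difference in *Apoe* was not tested.

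The genes for VLDL assembly are *Apob*, *Mttp* and *Tm6sf2*. *Apob* spans 28 exons on chromosome 12 from 7977648 to 8016835, and FPKM of the gene does not separate the edited mRNA that encodes apoB48 from the unedited mRNA of apoB100. It had 827, 783 and 856 FPKM in WT and 879, 723 and 820 FPKM in TRIM24 C52/55A livers, in overlapping ranges. The log2 fold change was -0.03 (95% confidence interval -0.24 to 0.18, adjusted p = 0.889 from limma), an interval that as a change in level runs from -15.4% to 13.5%. Its sign turned with median-of-ratios scaling (0.07), with quantile normalization (0.04) and without TRIM24 C52/55A replicate 2 (0.05).

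*Mttp*, whose product transfers triglyceride onto nascent apoB, had 96.0, 89.5 and 90.9 FPKM in WT and 77.5, 72.0 and 78.6 FPKM in knockin livers. All knockin livers were lower, and the spread within a genotype was small. Its log2 fold change was -0.27 (standard error 0.07, 95% confidence interval -0.44 to -0.11, adjusted p = 0.0602 from limma), and it was -0.17 with median-of-ratios scaling and -0.12 with quantile normalization. The files give *Mttp* an interval of 69968 bases on chromosome 3 that it shares with *Trmt10a* and *Gm43691*, against 55115 bases of the gene itself (138089854 to 138144968, minus strand, 18 exons). The largest values of those neighbours were 1.81 FPKM for *Trmt10a* and 0.173 FPKM for *Gm43691*.

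*Tm6sf2* encodes a membrane protein of the secretory pathway needed to load VLDL with lipid. It had 28.7, 23.7 and 26.8 FPKM in WT and 16.4, 19.7 and 21.2 FPKM in TRIM24 C52/55A livers, with the groups apart. *Tm6sf2* differed by -0.45 on the log2 scale (standard error 0.12, 95% confidence interval -0.71 to -0.18), and its adjusted p of 0.0533 from limma lay just outside the threshold. It passed in 4 of the 15 alternatives. The ratio of *Mttp* to *Apob* was 0.112 ± 0.00525 (n = 3) in WT and 0.0945 ± 0.00580 in knockin livers, and that of *Tm6sf2* to *Apob* was 0.0321 ± 0.00236 and 0.0239 ± 0.00466. Both ratios were lower in every knockin liver than in any WT liver (exact two-sided permutation p = 0.1 for each, the smallest possible).

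**Figure D3:**
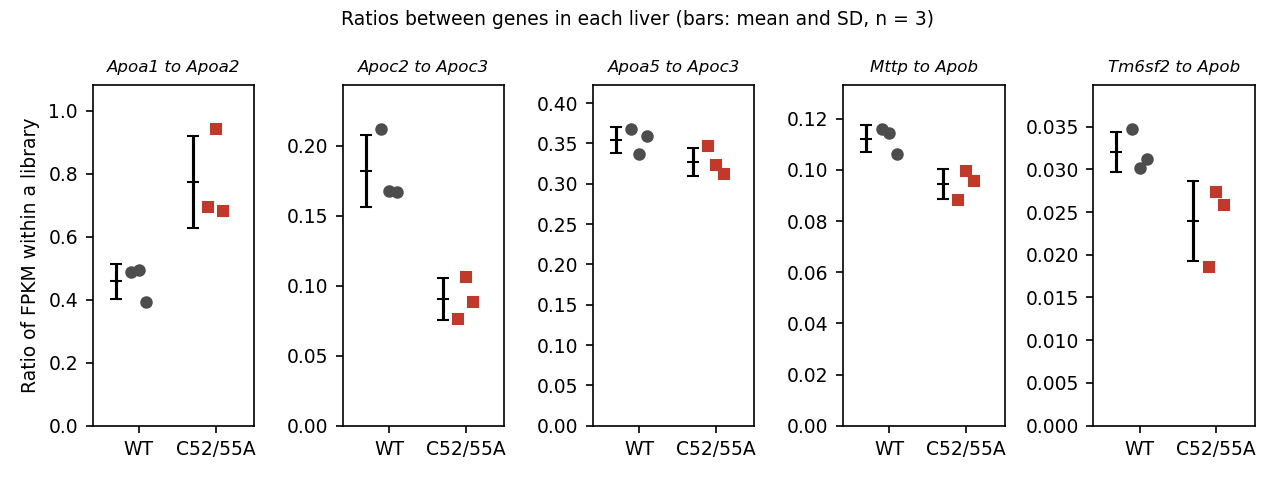
Ratio of FPKM between 2 genes within each library, from 0, for 3 WT (circles) and 3 TRIM24 C52/55A livers (squares), with mean and SD as bars. *Apoa1* to *Apoa2* was higher and *Apoc2* to *Apoc3*, *Mttp* to *Apob* and *Tm6sf2* to *Apob* were lower in all 3 knockin livers, while *Apoa5* to *Apoc3* overlapped (0.354 and 0.327).

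As the most abundant of the 10, *Apoe* and *Apoa2* set their sum. The 10 genes together took 6.79, 6.66 and 7.05% of all FPKM in the WT libraries and 4.92, 5.63 and 5.06% in the TRIM24 C52/55A libraries. The mean share was 6.84 ± 0.197% (n = 3) in WT and 5.20 ± 0.381% in knockin livers, with no overlap (exact two-sided permutation p = 0.1, the smallest possible). *Apoe* and *Apoa2* alone took 5.14 ± 0.256% and 3.58 ± 0.217%. FPKM summed to 644619 to 648221 in the WT and 673244 to 676791 in the TRIM24 C52/55A libraries, so a share falls further than the FPKM themselves. The steps between low values put the depth of the libraries at 0.959 to 1.02 times that of WT replicate 1, and total counts are not in these tables. That search covered only ratios near 1, so it could not have shown a large difference in depth. The 9 hepatocyte markers listed summed to 19489 to 20895 FPKM in WT and 18466 to 19333 FPKM in knockin libraries, and 3 of them (33.3%, against 7.72% of all genes tested) passed, *Cps1* (log2 fold change 0.63) upward and *Cyp2e1* (-0.54) and *Asgr1* (-0.31) downward.

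Of the 10 genes, *Apoa1*, *Apoc3*, *Apoa5*, *Apoc2* and *Apoe* sit in 2 clusters. On chromosome 9, *Apoa1*, *Apoc3*, *Apoa4* and *Apoa5* lie within 43.3 kb (46228580 to 46271919). *Apoa4*, which encodes a protein of chylomicrons, HDL and, in mouse liver, large VLDL, had 1031, 556 and 500.0 FPKM in WT and 76.9, 119 and 137 FPKM in TRIM24 C52/55A livers. Its log2 fold change was -2.60 (adjusted p = 0.00273 from limma), and it passed in all 15 alternatives. The files' interval for *Apoa4* also holds *Gm10680* and *RP24-302M3.5*, of at most 10.4 FPKM. Knockin means in the cluster were 112% of WT for *Apoa1*, 88.7% for *Apoc3*, 15.9% for *Apoa4* and 81.7% for *Apoa5*. Of the 7 neighbouring genes tested, *Zpr1*, *Bud13*, *Sik3*, *Pafah1b2*, *Tagln*, *Sidt2* and *Pcsk7*, 0 passed limma's test and 1, *Tagln*, had an unadjusted p under 0.05, beside 7.72% and 23.6% of all genes tested.

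On chromosome 7, *Apoc2*, *Apoc4*, *Apoc1* and *Apoe* lie within 27.6 kb (19671579 to 19699188), all on the minus strand. *Apoc1*, whose product hinders uptake and remodelling of lipoproteins, had 5422, 5141 and 5523 FPKM in WT and 4009.6, 4487 and 4407 FPKM in knockin livers. *Apoc4*, whose start lies upstream of *Apoc2* on the same strand, had 925, 936 and 987 FPKM in WT and 774, 796 and 809 FPKM in knockin livers. In both genes the knockin livers were below the WT livers, with adjusted p-values of 0.0650 and 0.0670 (limma). Knockin means in this cluster were 44.1% of WT for *Apoc2*, 83.5% for *Apoc4*, 80.2% for *Apoc1* and 77.1% for *Apoe*. The ratio of *Apoc2* to *Apoc4* was 0.466 ± 0.0734 (n = 3) in WT and 0.245 ± 0.0439 in knockin livers, without overlap. Of the 8 neighbouring genes tested, 0 passed limma's test and 1 had an unadjusted p under 0.05, beside the same 7.72% and 23.6%. That gene, *Relb*, was lower in every knockin liver than in any WT liver (log2 fold change -0.37, adjusted p = 0.0639 from limma) and passed in 2 of the 15 alternatives.

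**Figure D4:**
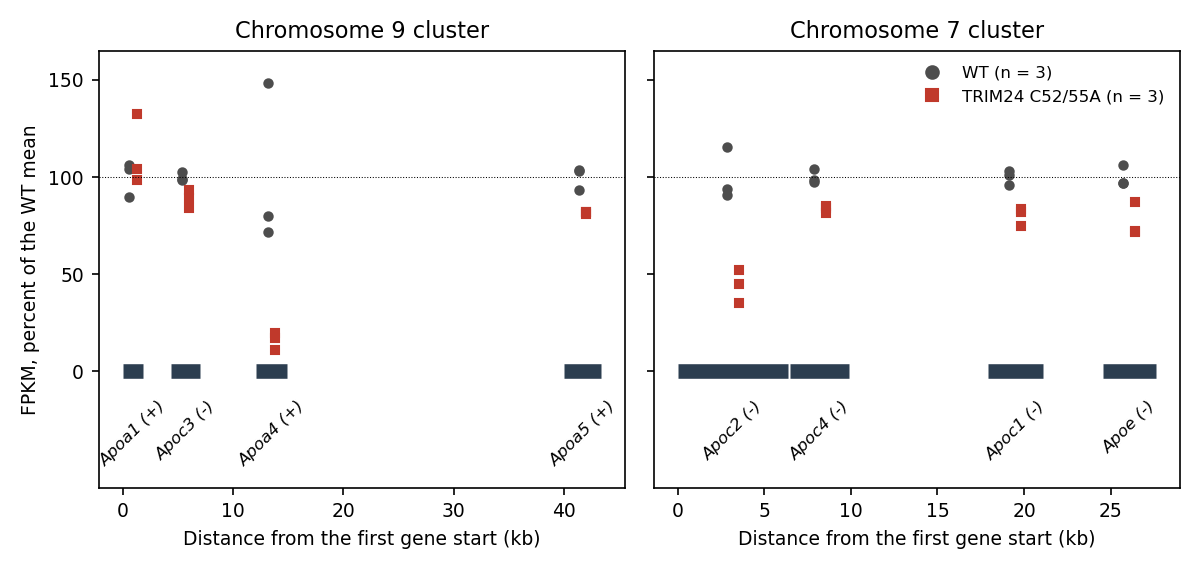
FPKM of each gene in the chromosome 9 and chromosome 7 apolipoprotein clusters as a percent of its WT mean, for 3 WT (circles) and 3 TRIM24 C52/55A livers (squares), against the distance from the first gene start in kb; dark bars are the genes. Within each cluster 1 gene stands far below the others in the knockin, *Apoa4* at 15.9% and *Apoc2* at 44.1% of the WT mean.

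*Apoa4* is also a gene of intestinal enterocytes, and the enterocyte markers were read beside it. Of 8 such markers 5, *Cdx2*, *Lct*, *Sis*, *Alpi* and *Rbp2*, were in no library. *Fabp2*, an intestinal fatty acid-binding protein gene, was at 162, 162 and 166 FPKM in WT and at 58.6, 67.9 and 85.8 FPKM in TRIM24 C52/55A livers (adjusted p = 0.00217 from limma). The 8 markers summed to 197 to 209 FPKM in WT and 96.4 to 118 FPKM in knockin libraries, a difference carried by *Fabp2*. *Anpep* overlapped between genotypes (means of 41.2 and 36.0 FPKM, adjusted p = 0.437 from limma), and *Vil1* was below the filter. The markers' part in the difference in *Apoa4* was not tested. Of the 13 other apolipoprotein genes, 10 were tested, and *Apod*, *Apol6* and *Apol8* were below the filter. *Apoa4* was the 1 that fell, and *Apol9a*, of a family induced by interferon, was the 1 that rose, by 0.59 on the log2 scale (adjusted p = 0.0451 from limma, passing in 8 of 15 alternatives). These 2 are 20% of the 10, against 7.72% of all genes tested. *Apoc1* had the highest level of these, and the median fold change of the 10 was -0.06.

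Partners of VLDL assembly, apoB editing and export from the endoplasmic reticulum were listed as 37 genes, which gave 38 tested entries. Of these 3 rose and 3 fell, 15.8% of the list against 7.72% of all genes tested, and the median log2 fold change was -0.13. *Ces3b* and *Ces3a*, carboxylesterases of the endoplasmic reticulum, rose by 1.54 and 0.55 on the log2 scale (adjusted p = 0.00178 and 0.0136 from limma). *Ces3a*, the most abundant of the list, had 797, 867 and 860 FPKM in WT and 1382, 1144 and 1187 FPKM in knockin livers. *Sort1*, encoding sortilin, a sorting receptor that binds apoB, rose from 2.44, 1.86 and 1.51 FPKM to 4.78, 5.23 and 4.09 FPKM (log2 fold change 0.96, adjusted p = 0.00779 from limma). *Ces3b* and *Sort1* passed in all 15 alternatives and *Ces3a* in 13. *Ces3a* and *Ces3b* are close paralogs, and how the counting treated fragments that fit both is not given in the sources used here.

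The 3 partners that fell were *P4hb*, *Mia2* and *Tor1a*. *P4hb*, protein disulfide isomerase, is the obligate partner of MTTP. It had 449, 468 and 454 FPKM in WT and 359, 355 and 395 FPKM in knockin livers (log2 fold change -0.31, adjusted p = 0.0454 from limma). The ratio of *P4hb* to *Mttp* was 4.97 ± 0.275 (n = 3) in WT and 4.87 ± 0.204 in knockin livers, with overlap (exact permutation p = 0.6). *Mia2*, a receptor that helps large cargo leave the endoplasmic reticulum, fell by 0.35, and *Tor1a*, the ATPase torsinA, fell by 0.54 on the log2 scale (adjusted p = 0.0246 and 0.0281 from limma). *Mia2* is listed under 2 gene identifiers, of which the other did not pass (adjusted p = 0.135 from limma). *P4hb*, *Mia2* and *Tor1a* passed in 5, 6 and 7 of the 15 alternatives.

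Of 34 transcription factors and coactivators known to act on apolipoprotein genes, 33 were tested. Of these 0 rose and 4 fell with limma, 12.1% of the list against 7.72% of all genes tested. An unadjusted p under 0.05 was found for 8 of the 33, or 24.2%, against 23.6% of all genes tested, and the median log2 fold change was -0.11. *Pparg*, a nuclear receptor for fatty acids that drives lipid storage genes, had 9.42, 5.55 and 8.39 FPKM in WT and 1.90, 2.27 and 2.71 FPKM in TRIM24 C52/55A livers (log2 fold change -1.40, adjusted p = 0.00491 from limma, passing in all 15 alternatives). *Cebpb* and *Nr1h2* (LXR-beta) fell by 0.94 and 0.48 on the log2 scale (adjusted p = 0.0428 and 0.0342 from limma), and these passed in 5 and 6 alternatives. *Hnf4a*, a main activator of apolipoprotein genes in hepatocytes and the most abundant of the list, had 146, 147 and 151 FPKM in WT and 148, 158 and 149 FPKM in knockin livers. Its values overlapped, with a log2 fold change of 0.04 (95% confidence interval -0.12 to 0.19, adjusted p = 0.798 from limma).

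Receptors, lipases and transfer proteins that act on the same particles were listed as 20 genes, of which 19 were tested, 0 rose and 4 fell with limma, 21.1% of those tested against 7.72% of all genes, and 8, or 42.1% against 23.6%, had an unadjusted p under 0.05. *Pltp*, encoding phospholipid transfer protein, had 62.2, 56.3 and 47.4 FPKM in WT and 13.4, 20.8 and 18.5 FPKM in TRIM24 C52/55A livers (log2 fold change -1.61, adjusted p = 0.00178 from limma). *Lipg*, endothelial lipase, fell by 1.42 on the log2 scale (adjusted p = 0.00321 from limma). Both passed in all 15 alternatives. The median log2 fold change of the 19 was -0.20.

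**Figure D5:**
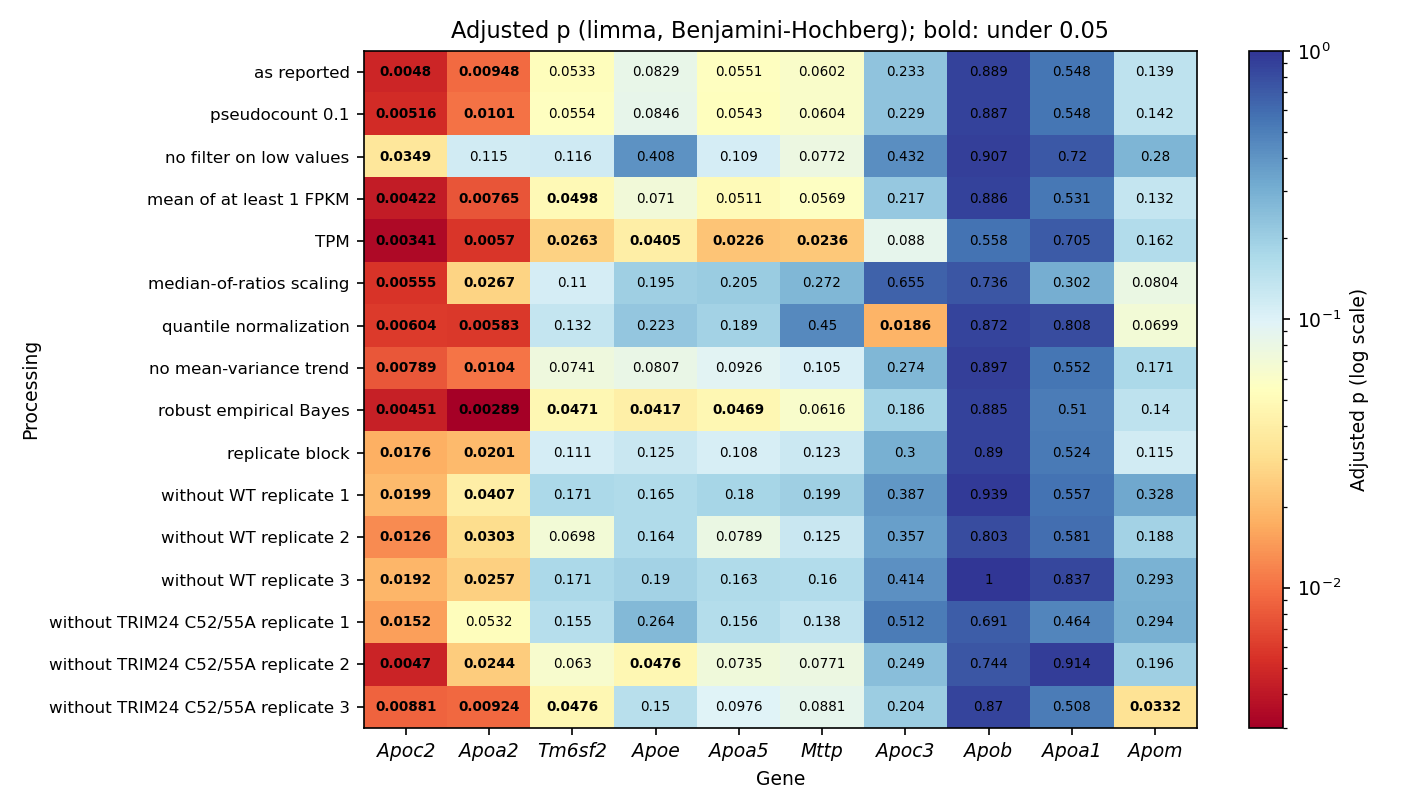
Adjusted p-value from limma for each of the 10 genes (columns) as reported and under 15 alternative processings (rows), with values under 0.05 in bold and colour on a log scale. *Apoc2* is bold throughout and *Apoa2* in 13 of the 15 alternatives, while *Apob* and *Apoa1* are never bold.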

How the data were processed

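Livers of 3 WT and 3 TRIM24 C52/55A mice were compared by RNA-Seq, from 1 table per mouse. The authors deposited FPKM, which are scaled to transcript length and library and keep no total count. Depth was therefore estimated only in relative terms and over a narrow range, and fold changes compare scaled levels. The submitters' processing notes name GRCm38, bcl2fastq, Salmon 0.14.0 and DESeq2 1.30.0 with no role. The aligner, the annotation and the tool behind the FPKM are not given in the sources used here. Where the files merge several genes into 1 interval, the division of fragments among them may move values.

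Groups came from the genotype labels. Genes that averaged 0.5 FPKM or more were compared on log2(FPKM + 1) by limma 3.58.1 under R 4.3.3. The fit used lmFit and eBayes with a trend of variance on mean, p-values were adjusted by the Benjamini-Hochberg method, and the threshold was 0.05. The script was tested on simulated data. Exact permutation tests were two-sided. Tables were handled with pandas 2.3.3 and numpy 2.4.6 in Python 3.11.15, permutations with scipy 1.17.1 and plots with matplotlib 3.10.9. Of 21528 gene identifiers, 21454 were in GENCODE M21.

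The 10 genes and the other lists were chosen with earlier results of these data known. Each of the 10 is named, and of the other lists those past the threshold, the gene of highest mean FPKM and the members of both clusters. The ratios, the motifs and the named markers were chosen after values were seen. Alternatives were a pseudocount of 0.1, a filter at a mean of 1 FPKM or none, TPM, median-of-ratios and quantile scaling, no trend, robust eBayes, a replicate block and each replicate left out. *Alb* was not analysed here. Some genes counted in the lists are not reported here by name.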

Additional observations from a re-analysis of the deposited data

How the results depend on the processing

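Of 944 genes with an adjusted p-value under 0.05, 200 were higher and 744 lower. Without a filter there were 347 (95 higher, 252 lower), and 1 of the 10 apolipoprotein and VLDL genes passed, *Apoc2*. With TPM there were 1555 (1358 lower), and 6 of the 10 passed, *Apoa5*, *Apoe*, *Mttp* and *Tm6sf2* joining *Apoa2* and *Apoc2*. With robust empirical Bayes 5 of the 10 passed, *Mttp* not among them. *Apoc3* joined *Apoa2* and *Apoc2* with quantile normalization. Genes that were lower numbered 406 with median-of-ratios scaling and 378 with quantile normalization, beside 250 and 255 that were higher, so that 38.1% and 40.3% of calls were higher, against 21.2% in the reported values and 12.7% with TPM. These scalings moved the median of all genes by 0.08, 0.09 and, for TPM, -0.06 on the log2 scale.

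With 1 replicate left out, 294 to 1280 genes passed (88 to 239 higher, 202 to 1041 lower) and 1 to 4 of the 10. The lowest count, 294, was without TRIM24 C52/55A replicate 1. Counts were also under 944 by more than 1.5 times without WT replicate 1 (311), 2 (475) or 3 (300). The replicate block gave 578 genes (156 higher, 422 lower), and *Apoa2* and *Apoc2* again passed. Same-numbered libraries deviated from their group means with correlations of -0.12 to 0.0027. Low correlations cannot exclude that the numbers pair the mice, and the labels do not say. Over the 10 genes and 15 alternatives, 132 of the fold changes kept their direction and side of the threshold, 12 passed it newly, 2 no longer passed and 4 turned sign, which were *Apob* with median-of-ratios scaling (0.074), quantile normalization (0.036) and without TRIM24 C52/55A replicate 2 (0.047), and *Apoa1* with quantile normalization (-0.081). With 1 replicate left out, the fold change of *Apob* ran from -0.093 to 0.047. The cause of these changes was not tested.

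Over the alternatives, genes that passed numbered 1 to 4 of the other apolipoproteins, 2 to 8 of the VLDL partners, 1 to 6 of the transcription factors and 2 to 7 of the receptors and lipases. FPKM without counts give no interval from depth for a single library.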

Other observations

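TRIM24 C52/55A replicate 2, the library that stood apart in adipocyte markers, held *Adipoq* at 4.55, *Plin1* at 3.32 and *Lep* at 3.98 FPKM. These 3 were named after their values were seen. *Car3* went the other way and was lowest there of the 6 livers. *Cfd* at 2.54 and *Plin4* at 2.06 FPKM were highest there among the knockin livers and below every WT liver. *Adrb3* was high in all 3 knockin livers. The same library had the highest *Apoa1*, at 8183 FPKM, and *Apom*, at 166 FPKM, of the 6 livers, and the highest *Apoe* of the knockin livers. *Lpl*, lipoprotein lipase, was at 9.62 FPKM there and between 1.47 and 3.57 FPKM in the other livers. Without that library the log2 fold change was -0.47 for *Apoe*, 0.05 for *Apob*, 0.02 for *Apoa1* and 0.26 for *Apom*, against -0.38, -0.03, 0.15 and 0.42 with it. The part of the adipocyte genes in these values was not tested.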
